A study of Homo sapiens with 10 samples.

Results

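Keratins are the intermediate filament proteins of epithelial cells. A filament is built from pairs of an acidic type I and a basic type II keratin, so neither type forms filaments alone, and the pair in use differs between cell types: KRT8 with KRT18 in simple epithelia, KRT5 with KRT14 in the basal epidermis, KRT1 with KRT10 in its upper layers, and the hair keratins in the hair shaft. Melanocytes are not epithelial, and their main intermediate filament protein is vimentin. The genes lie in a type II cluster with KRT18 on chromosome 12 and a type I cluster on chromosome 17.

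The keratin family was taken as every gene whose symbol is KRT followed by a number and, where present, A, B or C. This rule gave 55 of the 57955 genes in the files, 29 of type I and 26 of type II, with 27 on chromosome 12 and 28 on chromosome 17. Of these, 15 reached 20 counts in at least 1 library and are described here, and the other 40 were silent by this limit. The described keratins of simple epithelia were KRT7, KRT8, KRT18 and KRT19, and KRT80 of differentiating epithelia was counted with them. Those of hair were KRT81, KRT83, KRT85, KRT86 and KRT34. The others were KRT75 of the hair follicle's companion layer, and KRT6B, KRT79, KRT10 and KRT15 of stratified epithelia and skin appendages. The 15 are not independent measurements, since several share sequence.

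The data were 10 mRNA sequencing libraries of 5 BRAF-mutant human melanoma cell lines. WM983A, WM278 and WM902B came from primary and WM983B and WM1617 from metastatic tumors, and the lines came from 3 patients, because WM983A shares its patient with WM983B and WM278 with WM1617. Each line was sequenced once in its original state, sensitive to the BRAF inhibitor encorafenib and the MEK inhibitor binimetinib, and once as the resistant line (E+BRes) grown from it. Selection began at 1 nM of the drug combination and reached 200 nM after 3 to 5 months, and the resistant cells stayed in 200 nM, so resistance and the presence of the drugs cannot be told apart. Each library held 13693922 to 18033247 expected counts, which are reads per gene with fractions where a read was shared, and 3 counts were taken as the smallest detectable level. A normalized count is this count scaled to the average library by edgeR's TMM factors. With 1 library per line and state, the 5 lines were the replicates, and the related lines are not independent of each other. In these bulk libraries, a change in the share of keratin-expressing cells and a change in RNA per cell cannot be told apart.

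The resistant WM983A library stood apart. Over all genes it correlated better with sensitive WM902B (r = 0.845) than with its own sensitive line (r = 0.827), while each of the other 4 resistant libraries was closest to its own sensitive line (r = 0.891 to 0.984). The summed normalized count of 15 epithelial markers was 14801 in it against 39.7 to 495 in the other 9 libraries. SPINT2, a serine protease inhibitor, made up most of that sum, at a normalized count of 13500. The adhesion molecule CDH1 was at 902 and EPCAM at 167, while the splicing factor ESRP1 was at 8.09, against 410 in sensitive WM983A, and RAB25 at 1.16. The melanocyte markers summed to 1578 in it, below the 3267 to 72574 of the others. SOX10, the melanocyte lineage factor, was at a normalized count of 97.3 against 5215 in sensitive WM983A. The melanosome protein PMEL was at 478 against 21467. These low levels were not particular to this library. SOX10 was at 192 in resistant WM983B and 10.1 in resistant WM902B, against 4681 and 4865 in their sensitive libraries. PMEL was at 395 and 108 in these resistant libraries, against 7023 and 22064. In resistant WM278 and WM1617 SOX10 was at 4147 and 5153. The part of these features in the keratin levels was not tested, and each keratin result that rests on this library is given with and without it.

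Some keratins are so similar in sequence to other genes that reads of 75 bases cannot always be assigned to a single gene. This matters for the counts of those keratins, most of all KRT81, KRT86 and KRT6B. KRT81 and KRT86 matched at 93.5% of the 1454 coding bases that could be aligned, and of the ungapped coding windows of 75 bases 48.8% were identical. The stretches shown here were read from GENCODE 44 transcripts on GRCh38 and lie in coding sequence, the KRT81 one on the minus strand and the KRT86 one on the plus strand. A read from the shared stretch, chr12:52291331-52291405 in KRT81 and chr12:52301977-52302051 in KRT86, fits either gene.
KRT81 and KRT86: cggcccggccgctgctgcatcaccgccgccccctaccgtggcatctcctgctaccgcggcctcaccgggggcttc

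KRT6B and KRT6C, the type II keratins of activated epidermis, were closer still, with 98.5% of 1692 coding bases identical. Even where they differed most (differing bases in capitals), at chr12:52447281-52447355 in KRT6B and chr12:52469153-52469227 in KRT6C, both on the minus strand, 5 bases of 75 differed.
KRT6B: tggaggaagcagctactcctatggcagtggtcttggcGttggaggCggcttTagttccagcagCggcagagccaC
KRT6C: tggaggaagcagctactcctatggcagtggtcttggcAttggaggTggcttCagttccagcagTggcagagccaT

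KRT6B lies at chr12:52446651-52452146. Over whole transcripts, 36.6% of the 75-base windows of KRT81, 36.5% of KRT86 and 34.6% of KRT6B also occurred in another gene. The share was 18.8% for KRT8, most often in the pseudogene KRT8P3, and 28.4% for KRT18. In KRT18 most of these windows came from KRT8 on the opposite strand, whose annotated exons overlap those of KRT18 by 525 bases, and the sources used here do not state whether the counting used strand. For KRT7 the share was 9.8%, all with the antisense gene KRT7-AS. No window of KRT10, KRT15, KRT19, KRT79 or KRT80 was shared. How shared reads were divided among genes is not given in the sources used here.

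All 10 libraries held keratin transcripts, at a low level. Keratins made up 0.0121% to 0.05% of the counts in the sensitive libraries and 0.0219% to 0.0527% in the resistant ones, except 0.454% in resistant WM983A. KRT7, KRT8, KRT18, KRT81 and KRT10 had at least 20 counts in every library. The number of keratins at 20 counts or more was 7 in sensitive and 11 in resistant WM983A, and 8 and 11 in WM983B. In the other lines it was lower in the resistant library, at 7 against 9 in WM278, 5 against 8 in WM1617 and 6 against 9 in WM902B. Of the 15 described keratins, 10 had their highest count in resistant WM983A, 1 in resistant WM983B, 2 in sensitive WM278 and 2 in sensitive WM1617. KRT83 and KRT85, both highest in resistant WM983A, and KRT34, KRT6B and KRT75 reached 20 counts only in their highest library. The share of all genes that were highest in resistant WM983A was not computed.

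**Figure D1:**
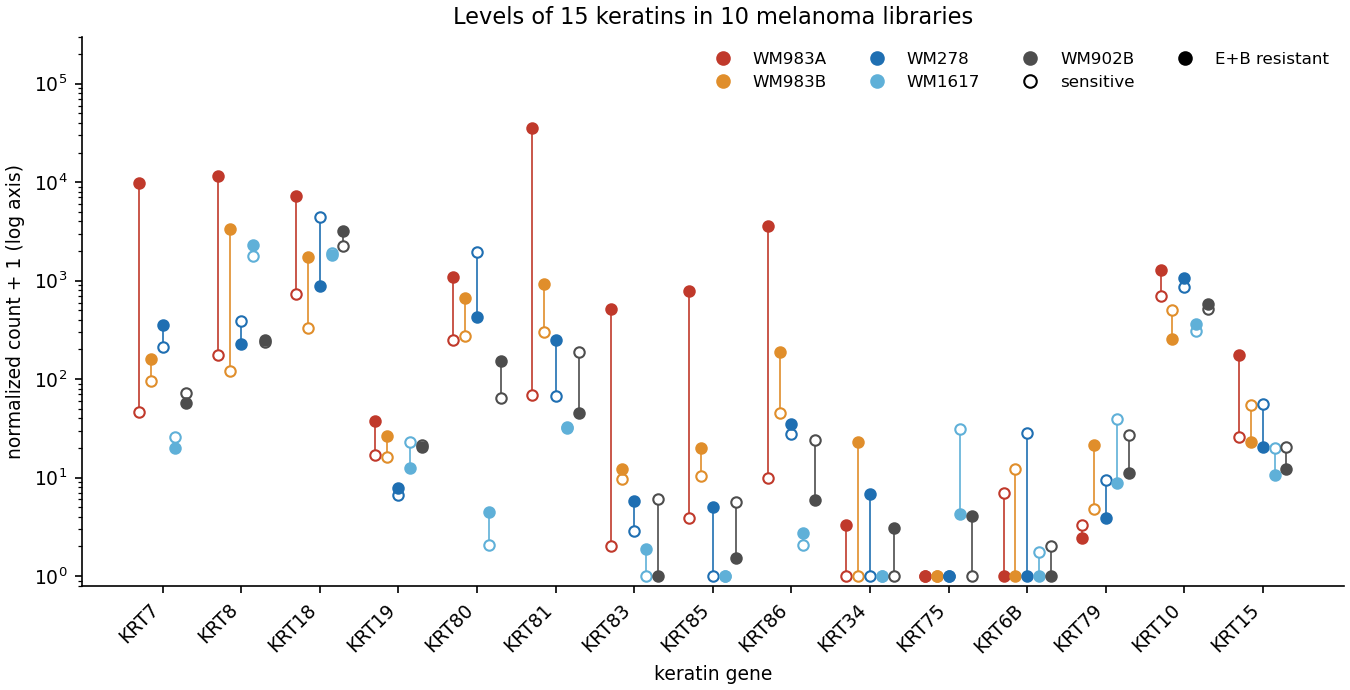
Normalized counts with 1 added (log axis) of the 15 described keratins, with open points for the sensitive and filled points for the resistant library of each line, joined by a line. KRT7, KRT81, KRT83, KRT85 and KRT86 have their highest point in resistant WM983A, while KRT10 stays between 256 and 1294 in all libraries.

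Per kilobase of transcript, which allows genes to be compared, KRT18 had the highest level of any keratin in 7 of the 10 libraries, in resistant WM1617 with 1297 against 1279 for KRT8. Its normalized count per kilobase was 513 in sensitive WM983A, 3123 in sensitive WM278, 1348 in sensitive WM1617 and 1581 in sensitive WM902B. In sensitive WM983B KRT10 was at 237 and KRT18 at 231 per kilobase, and neither of these gaps is large enough to order the genes with 1 library. The other exceptions were resistant lines: KRT8 led in resistant WM983B with 1863 per kilobase against 1240 for KRT18, and KRT81 led in resistant WM983A with 18536 per kilobase against 6473 for KRT8 and 6004 for KRT7. At that level KRT81, a keratin of the hair cortex, ranked 16 among the 56911 genes with an annotated exon length in that library, against rank 11216 in the sensitive line.

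The 40 silent keratins included the pair of the basal epidermis. KRT14, which pairs with KRT5 in basal keratinocytes, had the highest count of any of them, 17 in resistant WM278, and KRT5 reached 12. KRT1, KRT13, KRT20 and KRT24 were among the 14 with no count in any library, and 29 of the 40 never passed 3 counts. A count of 0 allows up to 3 counts in a library, so very low levels were not detectable at this depth. Of the 17 hair keratins 5 were described, and of the 9 of the inner root sheath and companion layer 1. Of the 7 simple epithelial keratins, with KRT80 counted among them, 5 were described.

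The question of the design was how the resistant lines differ from the sensitive ones. In edgeR's quasi-likelihood test of 5 resistant against 5 sensitive libraries, KRT7, KRT8, KRT81 and KRT86, all type II, were higher in the resistant libraries at an unadjusted p of at most 0.05 and a fold of at least 2, and no keratin was lower. That is 4 of the 9 keratins that passed the filter on low counts, where 3.53% of all 17287 tested genes were called higher and 0.885% lower. No keratin and no gene passed after Benjamini-Hochberg adjustment over all genes in edgeR, where 1235 genes had an unadjusted p of at most 0.05, or in limma-voom, and DESeq2 called 107 genes and no keratin. By exact permutation over the libraries none of these 4 was at p of at most 0.05. All 4 calls were lost without resistant WM983A and also with the cell line as a block. The 3 with the largest fold, KRT7, KRT81 and KRT86, rest on that single library.

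KRT81 lies on the minus strand at chr12:52285913-52291534 (GRCh38, GENCODE 44). It had 68.1, 297, 69.2, 28.9 and 183 counts in sensitive WM983A, WM983B, WM278, WM1617 and WM902B. In the resistant libraries of the same lines it had 30949, 972, 258, 35.2 and 43.5 counts. The groups overlapped, and the resistant WM983A count exceeded every other by far. Within lines the normalized count was 523-fold higher in resistant WM983A, 3.09-fold higher in WM983B, 3.78-fold higher in WM278, 1.02-fold lower in WM1617 and 4.17-fold lower in WM902B. The fitted log2 fold change was 5.84 ± 1.97 (SE, 5 against 5 libraries; edgeR's quasi-likelihood test, adjusted p = 0.63). The exact two-sided permutation p of the log2 normalized counts was 0.373. Without resistant WM983A the fitted value was 1.25 ± 1.01 and with the cell line as a block 1.43 ± 1.48, neither past the unadjusted threshold.

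KRT86 (chr12:52249300-52309163), the neighbor of KRT81 and also a type II hair keratin, had 8.8, 43.3, 27.9, 1 and 22.7 counts in the sensitive lines in the same order, and 3094, 198, 34.9, 2 and 4.8 in the resistant ones. The order of the resistant libraries was the same as for KRT81. KRT86 counts were 3.46% to 40.3% of those of KRT81 in the same library, and 10% in resistant WM983A, and the split of reads between them is uncertain. The fitted log2 fold change was 5.20 ± 1.89 (edgeR adjusted p = 0.645), and the exact permutation p was 0.397. It was 1.45 ± 1.23 without resistant WM983A and 1.56 ± 1.55 with the block, not past the unadjusted threshold in either. With KRT81, KRT83, KRT85, KRT86 and the pseudogene KRT87P summed before the fit, the log2 fold change was 5.77 and past the unadjusted threshold.

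KRT83 and KRT85, further type II hair keratins, were too low for the fit. KRT83 had 1 count in sensitive and 446 in resistant WM983A, a 514-fold higher normalized count with an exact 95% interval of 91.9 to 20371 that covers counting error only. KRT85 had 2.9, 9.2, 0, 0 and 4.6 counts in the sensitive lines and 683, 19.9, 4.2, 0 and 0.5 in the resistant ones, and its difference in WM983A was 275-fold with an interval of 89.3 to 1274. In the other 8 libraries KRT83 had at most 11.8 counts. For both genes resistant WM983B came second. In resistant WM983A KRT83 was 1.44% and KRT85 2.21% of the KRT81 count, and few of their windows were shared with another gene (3.55% and 3.46%). KRT34, a type I hair keratin on chromosome 17, had no count in any sensitive library and 2, 23, 6, 0 and 2 counts in the resistant ones. The highest was resistant WM983B, at least 7.23-fold above the sensitive library, in which a count of 0 allows up to 3. The exact two-sided permutation p for KRT34 was 0.0476, and the groups overlapped because resistant WM1617 was also at 0. Only resistant WM983B brought KRT34 to 20 counts, so its choice was not independent of this test.

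KRT8 (chr12:52897187-52949954), the type II keratin of simple epithelia, was high in more than 1 resistant line. It had 174, 118, 407, 1618 and 231 counts in sensitive WM983A, WM983B, WM278, WM1617 and WM902B, and 9996, 3485, 237, 2612 and 240 in the resistant libraries. The normalized count was 66.2-fold higher in resistant WM983A and 28-fold higher in resistant WM983B, the lines of the same patient. In the other lines it differed less, 1.7-fold lower in WM278, 1.3-fold higher in WM1617 and 1.05-fold higher in WM902B. The fitted log2 fold change was 2.73 ± 1.15 (edgeR adjusted p = 0.685), and the exact permutation p was 0.119. It was 1.51 ± 1.01 without resistant WM983A and 1.78 ± 1.3 with the block, not past the unadjusted threshold in either. The call was also lost, at log2 fold changes of 2.47 to 2.74, without resistant WM983B or without any sensitive library other than WM1617.

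KRT18 (chr12:52948871-52952906), the type I partner of KRT8, had 722, 323, 4635, 1749 and 2188 counts in the sensitive libraries and 6248, 1837, 909, 2097 and 3117 in the resistant ones. It was 9.96-fold higher in resistant WM983A and 5.36-fold higher in WM983B, but 5.03-fold lower in WM278. The groups overlapped widely, and the log2 fold change was 0.64 ± 0.712 (edgeR adjusted p = 0.886, exact permutation p = 0.389) and -0.00207 ± 0.67 without resistant WM983A. In WM983A and WM983B, KRT8 therefore differed by more than KRT18. The ratio of KRT8 to KRT18 per kilobase went from 0.191 to 1.27 in WM983A and from 0.288 to 1.5 in WM983B. It was 0.0696 and 0.206 in WM278, 0.733 and 0.987 in WM1617, and 0.0835 and 0.0609 in WM902B. KRT8 exceeded KRT18 per kilobase in no sensitive library and in 2 resistant ones, a description of these libraries with no test.

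**Figure D2:**
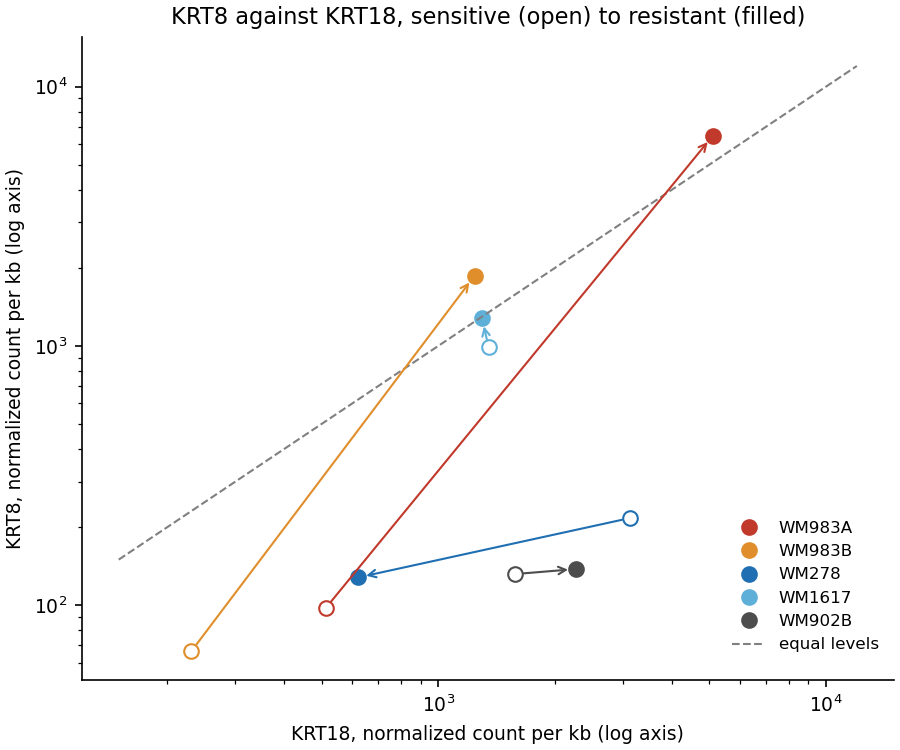
KRT8 against KRT18 as normalized count per kilobase (log axes), with an arrow from the sensitive (open) to the resistant (filled) library of each line and a dashed line of equal levels. WM983A and WM983B end above the dashed line, with ratios of 1.27 and 1.5, WM278 moves to lower KRT18, and WM1617 and WM902B stay close to where they began.

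KRT8 and KRT18 also have many pseudogenes, 50 and 67 in the files, and these were counted beside the parent genes. The KRT8 pseudogenes summed to 155 counts in sensitive and 2420 in resistant WM983A, and to 138 and 890 in WM983B. They took 19.5% of the summed KRT8 and KRT8 pseudogene counts in resistant WM983A and 20.3% in resistant WM983B, against 47.1% and 54% in the sensitive libraries of those lines. KRT18 pseudogenes took a narrower range, 14.4% to 19.5% over all libraries. With pseudogenes added to the parent gene before the fit, the log2 fold change of KRT8 was 2.55, past the unadjusted threshold.

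KRT7 (chr12:52232520-52252186), a type II keratin of ducts and glands, had 45.1, 93.8, 222, 23 and 70.7 counts in the sensitive lines in the order used above. In the resistant ones it had 8445, 166, 367, 21.9 and 55.2 counts. It was 215-fold higher in resistant WM983A, 1.67-fold higher in both WM983B and WM278, 1.3-fold lower in WM1617 and 1.27-fold lower in WM902B. Apart from resistant WM983A the groups covered nearly the same range. The log2 fold change was 4.54 ± 1.62 (edgeR adjusted p = 0.632), and the exact permutation p was 0.365. It was 0.71 ± 0.833 without resistant WM983A and 1.04 ± 1.14 with the block, not past the unadjusted threshold in either.

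KRT80, a type II keratin of differentiating epithelia, went in different directions in different lines. It had 247, 271, 2066, 1 and 61.8 counts in the sensitive libraries and 948, 702, 441, 4 and 148 in the resistant ones. It was 4.42-fold higher in resistant WM983A, 2.44-fold higher in WM983B and 2.42-fold higher in WM902B, but 4.62-fold lower in WM278, where KRT18 was also lower. In WM1617 it was at 1 and 4 counts, a ratio of 3.21 whose exact 95% interval of 0.318 to 158 includes no change. The log2 fold change was -0.11 ± 1.39 (edgeR adjusted p = 0.993) and 0.84 ± 0.693 with the block. KRT19, a small type I keratin of ducts, stayed between 6 and 32 counts, with a log2 fold change of 0.35 ± 0.501 (edgeR adjusted p = 0.921).

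**Figure D3:**
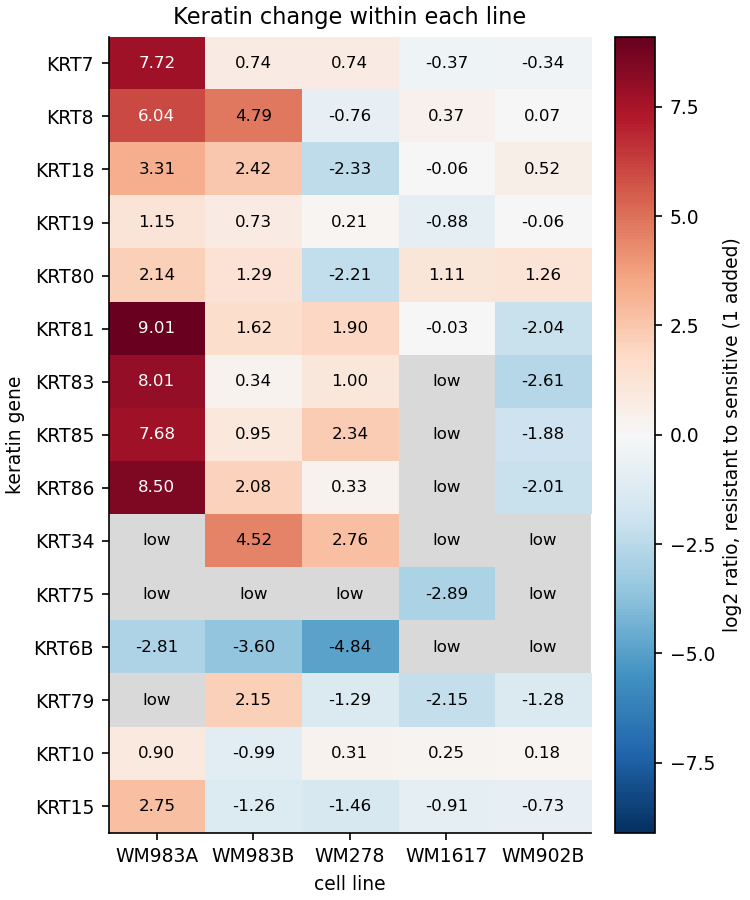
Log2 ratio of resistant to sensitive normalized count, 1 added to both, for the 15 described keratins in each line, red where the resistant library was higher and blue where it was lower. Grey fields marked low have 3 counts or fewer in both libraries. The WM983A column is mostly red, with ratios up to 9.01, and the WM902B column holds the lower hair keratins.

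KRT10, which in skin marks cells that have left the basal layer, varied least among the abundant keratins. It had 689, 502, 911, 282 and 504 counts in the sensitive lines and 1120, 269, 1113, 418 and 567 in the resistant ones. No line reached a 2-fold difference. The log2 fold change was 0.32 ± 0.458 (edgeR adjusted p = 0.921). KRT15, a type I keratin of basal and hair follicle stem cells, had 25, 53.2, 57.7, 17.4 and 19 counts in the sensitive lines and 151, 23, 20, 11 and 11 in the resistant ones. It was 6.96-fold higher in resistant WM983A and 1.71-fold to 2.85-fold lower in the other 4 lines. Its log2 fold change of 0.47 ± 0.824 (edgeR adjusted p = 0.939) became -1.14 ± 0.487 without resistant WM983A (edgeR adjusted p = 0.688). It was past the unadjusted threshold there, the only keratin called in that fit, where 0.895% of 17771 genes were called lower.

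KRT6B was lower in the resistant libraries at very low counts. It had 6, 11, 29.1, 0.7 and 1 counts in the sensitive lines and 0 in all 5 resistant ones, so the groups did not overlap. It was the only described keratin of this kind, and none had all resistant libraries above the sensitive ones. Of 19666 genes with 20 counts in any library, 0.31% had all resistant libraries lower and 0.442% had them all higher. The exact two-sided permutation p was 0.00794, the smallest that 5 against 5 libraries allow. It rests in part on 0.7 and 1 counts against 0 in WM1617 and WM902B, and it ignores the pairing of libraries by line. Resistant WM278 was at least 9.57-fold lower, WM983B at least 3.89-fold and WM983A at least 1.74-fold, whereas in WM1617 and WM902B both libraries were at the detection limit. Of the near-identical genes, KRT6C reached 9 and KRT6A 5 counts, both in sensitive WM278. By the exact permutation test 2 of the 15 described keratins, KRT6B and KRT34, were at p of at most 0.05, against 6.12% of all 19666 genes. Each of them reached 20 counts in a single library, of the group where it was higher, so their choice was not independent of the test. No conclusion is drawn from these p-values.

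KRT75 and KRT79 were highest in sensitive WM1617. KRT75 had 27.9 counts there and 3.7 in resistant WM1617, 3 in resistant WM902B and 0 in the other 7 libraries. KRT79, found in the hair canal and sebaceous duct, had 35.3 counts in sensitive and 9 in resistant WM1617, 25.6 and 9.9 in WM902B, and 3.7 and 21.2 in WM983B. The lines moved in both directions, and the permutation p was 0.5 (exact, two-sided).

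**Figure D4:**
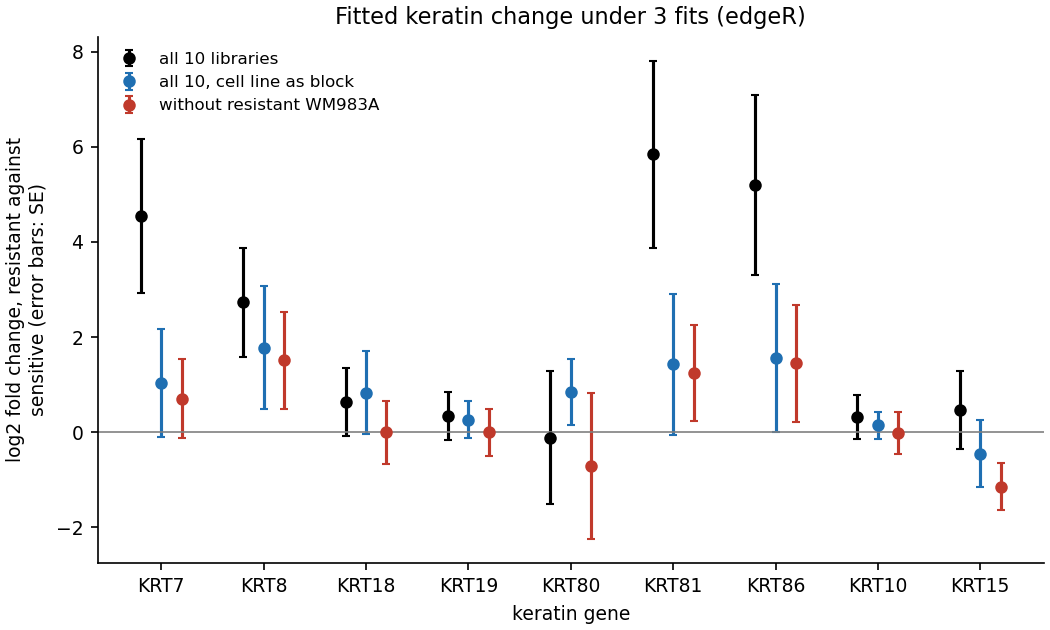
Fitted log2 fold change of the 9 tested keratins, resistant against sensitive, with SE as error bars, for all 10 libraries (black), for all 10 with the cell line as a block (blue) and without resistant WM983A (red). KRT81 goes from 5.84 to 1.43 and 1.25, and KRT8 from 2.73 to 1.78 and 1.51.

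Taken line by line, without a test, WM983A had the most keratins at a 2-fold difference. There 11 of the 15 were higher and 1 lower in the resistant library, where 19.9% of the 19666 genes were higher and 20.9% lower, and the median log2 ratio of the 15 was 2.75. WM983B had 7 higher and 2 lower (background 19.1% and 11.9%), with a median of 0.95. WM278 had 4 higher and 5 lower (14.2% and 8.22%), WM1617 had 1 higher and 2 lower (3.67% and 5.92%) and WM902B had 3 higher and 6 lower (17.8% and 13.6%). The medians of these 3 lines were 0.21, -0.03 and -0.34, and over all genes the median was 0.00 to 0.02 in the 5 lines. In WM983A 1 of these counts, KRT34, and in WM902B 3, KRT34, KRT75 and KRT6B, rested on libraries with no more than 3 counts. KRT83 and KRT85 in WM983A, KRT34 in WM983B, KRT6B in WM278 and KRT75 in WM1617 reached 20 counts only in a single library of that line. Their direction there was fixed by how they were chosen. The 19666 genes were chosen by the same limit. In WM902B the lower keratins were led by hair keratins, with KRT81 4.17-fold and KRT86 4.65-fold lower in the resistant library.

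Type II keratins took a larger part of the keratin signal in 4 of the 5 resistant lines. Of the summed normalized counts, type II made up 27.7% in sensitive and 87.8% in resistant WM983A, and 48.7% and 71.9% in WM983B. The shares were 33.6% and 39.2% in WM278, 45.6% and 51.3% in WM1617, and 18.2% and 12.1% in WM902B. In WM278 the larger share was not a type II gain. The type II sum was 2714 in the sensitive and 1303 in the resistant library, and the type I sum 5358 and 2018. In resistant WM983A KRT81 alone was 49.8% of the keratin counts, and the 5 described hair keratins together 56.6%, while the type I hair keratins there had at most 4.07 counts, in KRT32.

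The keratin sums were set beside markers of the cell types that carry keratins. Resistant WM983A had the highest sum of all 55 keratins, 71820 normalized counts against 1804 to 8072 in the others, the highest sum of epithelial markers and the lowest of melanocyte markers. Of the 15 epithelial markers 6 were at 20 counts or more there and 3 at 3 counts or fewer. The 16 keratinocyte differentiation markers summed to 4104 against 78.2 to 292, but SFN alone was 3971 of it. FLG was at 26.5 there against 244 in sensitive WM983A, IVL and LOR had no count, and 10 of the 16 had 3 counts or fewer. Resistant WM983B, second in KRT8 and KRT81, had an epithelial marker sum of only 254, with CDH1 at 1 count and EPCAM at 5. Its fibroblast markers summed to 23911, with resistant WM902B at 25901 and the other 8 libraries at 147 to 2754. A single gene made up most of each of these sums, POSTN with 19342 in resistant WM983B and COL1A1 with 18759 in resistant WM902B. In resistant WM983B COL1A1 was at 1352, PDGFRB at 1265 and FAP at 998, against 6.05, 27.4 and 112 in the sensitive library. LUM was at 876 and DCN at 1.91 in the resistant library, against 1172 and 13.1 in the sensitive one. TP63, the master factor of stratified epithelia, had 308 counts in resistant WM983B and 1 in resistant WM983A. The part of other cell types in the keratin levels was not tested.

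**Figure D5:**
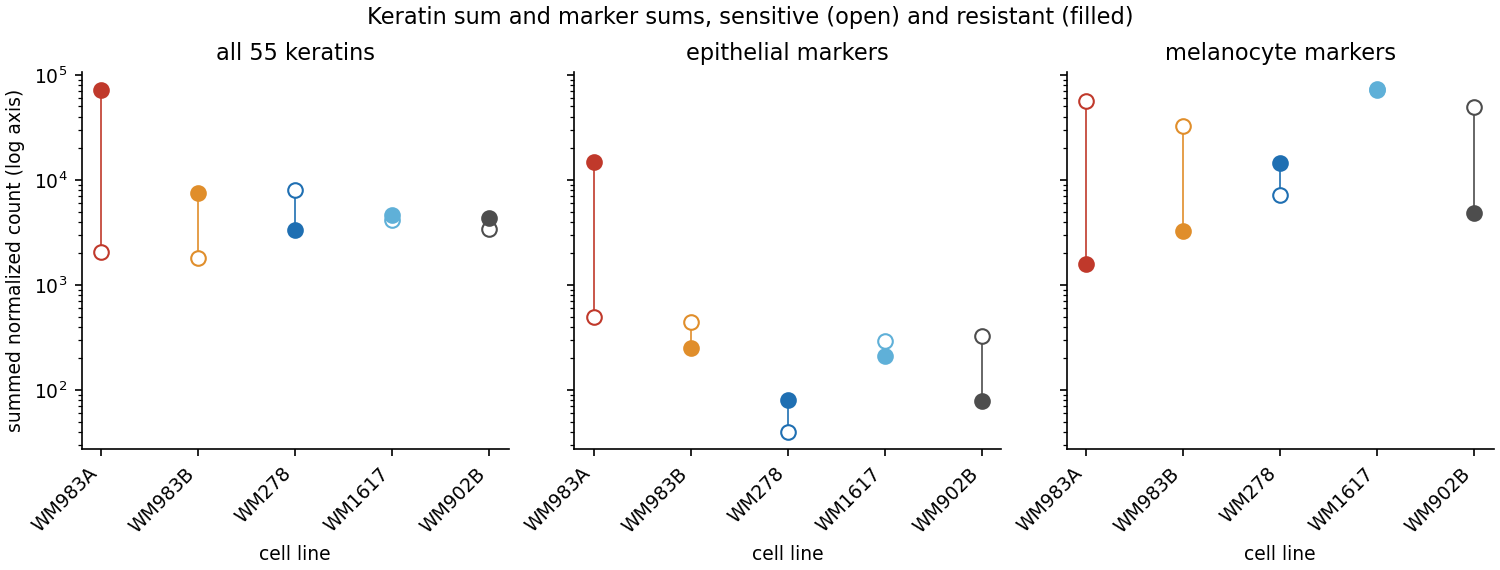
Summed normalized counts (log axis) of all 55 keratins, of 15 epithelial markers and of 14 melanocyte markers in each line, open for sensitive and filled for resistant. Resistant WM983A is highest for keratins (71820) and epithelial markers (14801) and lowest for melanocyte markers (1578), whereas resistant WM983B has a keratin sum of 7429 with epithelial markers at 254.

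Regulators of keratin genes include AP-1 factors, which bind keratin promoters, and epithelial factors such as those of the GRHL and ETS families. Of 28 listed, 20 were tested, 6 were higher (FOS, FOSB, FOSL2, JUNB, JUND and ATF3) and 2 lower (GRHL1 and EHF) at the unadjusted threshold, where 3.53% of all tested genes were higher and 0.885% lower. The median log2 fold change was 0.39 against 0.03 over all genes. This list, like those below, was chosen with earlier results of these data known, so these shares are not a test of the list. Among the AP-1 members not called, JUN had a log2 fold change of 1.56 ± 1.13 (edgeR adjusted p = 0.809) and FOSL1 of -1.05 ± 0.599 (edgeR adjusted p = 0.76). JUNB had a log2 fold change of 1.74 ± 0.419 (edgeR adjusted p = 0.63), and 1.74 without resistant WM983A. Without that library the 6 higher calls were still made and both lower calls were lost. With the cell line as a block 7 were higher and 2 lower. In WM983A ELF3 of the ETS family, which was not tested, had 6 counts in the sensitive and 759 in the resistant library. CEBPA, also not tested, had 0 and 227. In the other lines ELF3 had at most 25.7 and CEBPA at most 42 counts. The remaining untested regulators had at most 9.3 counts in either WM983A library. Of these, TP63, with 5 and 1 counts, and OVOL1, with 0.5 and 0, were lower in the resistant one.

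Of 24 genes that anchor keratins at desmosomes and hemidesmosomes, 13 were tested, 3 were higher and 1 lower (3.53% and 0.885% over all genes), with a median of 0.69. The 3 were the plaque proteins JUP and PKP3 and ITGB4, the hemidesmosome integrin. ITGB4 had a log2 fold change of 6.24 ± 1.72 (edgeR adjusted p = 0.63), which was 2.29 without resistant WM983A, and its call was lost with the block. PKP3 had 17, 21.2, 21, 3 and 13 counts in the sensitive lines in the order used above, and 1290, 376, 47.1, 2 and 77.8 in the resistant ones, with a log2 fold change of 4.72 ± 1.37 (edgeR adjusted p = 0.63) and 3.00 without resistant WM983A. ITGA6, the partner of ITGB4 in hemidesmosomes, was lower, at -1.68 ± 0.658 (edgeR adjusted p = 0.669). In WM983A EVPL, which was not tested, had 6 counts in the sensitive and 2462 in the resistant library. DSP, not called, had 73 and 1420, and ITGA6 4693 and 1744. Among 15 other intermediate filament genes, 7 were tested and BFSP1, a lens filament protein, was the only call. Its log2 fold change was 1.90 ± 0.78 (edgeR adjusted p = 0.685), and the call was lost with the block. In WM983A INA, not tested, had 0 counts in the sensitive and 954 in the resistant library, and NES, not called, 9404 and 54. Vimentin (VIM), the filament protein of melanocytes, had a normalized count of 27403 in resistant WM983A, its lowest, and 32248 to 79415 in the other libraries. Its log2 fold change was -0.51 ± 0.284 (edgeR adjusted p = 0.752).

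Of the marker lists, read against the same 3.53% and 0.885%, 3 of 15 epithelial genes were tested and 1, ESRP1, was lower, a call lost without resistant WM983A. Neither of the 2 tested keratinocyte markers of 16 was called. Of 12 tested melanocyte markers 1, the pigment enzyme TYRP1, was lower, and of 6 tested fibroblast markers 2, COL1A1 and PDGFRB, were higher. With the cell line as a block the calls of TYRP1 and PDGFRB were lost and TYR became the melanocyte call. None of the genes of any list passed the adjusted threshold in edgeR.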

How the data were processed

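mRNA was selected with oligo-dT, prepared with the NEB Ultra II RNA kit and read from a single end over 75 cycles. The authors used HISAT2 for alignment (genome build GRCh38) and StrandNGS for their further analysis. Tool versions, the quantification step, annotation and strand setting are not given in the sources used here. The deposited raw values are expected counts, of which 24.1% of those above 0 are whole. The deposited log2 values are ratios to the sensitive library of the same line (rebuilt to within 1.57e-06) and were used only to recover 455 raw values of sensitive WM983B held as dates, 1 of them a keratin (KRT23).

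Expected counts were rounded and fitted with edgeR 4.0.16 in R 4.3.3 (filterByExpr, TMM, glmQLFit and glmQLFTest, 5 resistant against 5 sensitive libraries, two-sided, Benjamini-Hochberg over all genes), with limma 3.58.1, DESeq2 1.42.0 and a block by cell line as alternatives. A call required a fold of at least 2 and p of at most 0.05, adjusted or not. The pairing comes from the line names: deviations from the group means of libraries of the same line correlated at 0.35 to 0.671 in 4 lines and at -0.0825 in WM983A. Single keratins were compared by exact permutation of log2 normalized counts with 1 added. Within-line ratios have no test. p-values measure only the spread between these lines. Lengths and shared windows came from GENCODE 44, Python 3.11.15, pandas 2.3.3, numpy 2.4.6, scipy 1.17.1 and matplotlib 3.10.9.

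The keratins and the other gene lists were chosen with earlier results of these data known. Values in all 10 libraries are given for KRT7, KRT8, KRT18, KRT81, the keratins among the 8 with the highest counts and those past the unadjusted threshold. Those of KRT15 were given in full after seeing them. Summing near-identical genes was also chosen after seeing the data. Promoters and proteins were not used here.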

Additional observations from a re-analysis of the deposited data

Results flagged for a closer look

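In 3 of the 28 groups of 5 libraries tested, the library at one end lay far from the rest by Dixon's criterion, where chance flags about 1 in 20 groups. Gaps and ranges were taken on log2 normalized counts with 1 added, not on the counts printed here. KRT75 was at 27.9 counts in sensitive WM1617 and 0 in the other sensitive libraries, so its gap was the whole range (ratio of 1). KRT75 reached 20 counts only in that library, so its flag followed from how it was chosen and adds nothing to the comparison with chance. KRT15 was far highest in resistant WM983A among the resistant libraries, with a gap of 0.725 of the range. KRT19 was far lowest in sensitive WM278 among the sensitive libraries, at 6 counts, with a gap of 0.72 of the range.

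Keratin pseudogenes, which lie outside the 55 genes, also had signal. KRT87P, a hair keratin pseudogene, had 1795 counts in resistant WM983A against at most 15.7 in any sensitive library, and this was 5.8% of the KRT81 count there. The KRT8 pseudogenes summed to 2420 counts in resistant WM983A against at most 485 in a sensitive library. With shared windows in KRT81 and KRT8, the part of reads from the parent genes in these counts was not tested.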

How the results depend on the processing

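Where the replicate block takes the pairing from the cell line, 0 keratins passed the unadjusted threshold in place of 4, KRT80 had a log2 fold change of 0.84 and KRT15 of -0.45. limma-voom also gave 0 keratins, with KRT80 at 0.63 and KRT15 at -0.40. The log2 fold changes of KRT81, KRT86, KRT7 and KRT8 were 2.01, 1.73, 1.59 and 2.12 in limma-voom. In edgeR they were 5.84, 5.20, 4.54 and 2.73, so their size depends on the method. DESeq2 gave 1 keratin, KRT8, with no p for KRT7, KRT81 and KRT86, and 107 genes past the adjusted threshold. Without the filter on low counts 12 keratins passed, 9 higher and 3 lower, and 2258 genes, because 38 keratins were then tested. Leaving out libraries or lines gave 1 to 4 keratins and 420 to 1579 genes. Only the settings without resistant WM983A gave 1 keratin, KRT15. Over these, KRT80 ran from -0.88 to 1.73, KRT18 from -0.21 to 1.44, KRT10 from -0.02 to 0.53 and KRT15 from -1.23 to 0.90. No adjusted call of a keratin appeared in any setting.

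Within lines, keratins past the threshold in WM278 were 5 at 4-fold. In WM1617 they were 5 with 0.1 added and 1 among keratins with at least 100 counts in any library. In WM902B they were 5 with 5 added, 4 at 4-fold and 5 among keratins with at least 100 counts. Leaving out lines in the permutation test gave 1 to 2 keratins. KRT6B, KRT34, KRT75 and KRT79 rest on fewer than 40 counts, and 1 library per line and state limits every within-line value.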
